A study of Drosophila melanogaster with 24 samples.

Results

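Gene expression in the developing wing of Drosophila melanogaster was compared between 18 h and 2 h after puparium formation (APF), the stages on either side of 6 h APF. The comparison used 8 of 24 arrays, chosen by their titles: 18 h samples A, B, C and D, and 2 h samples B, C, D and E. All wings came from w1118 animals, a white-eyed laboratory strain without a transgene, grown at 25 °C without any treatment, and each sample held the RNA of 10 wings. The 18 h wings were dissected without the notum, the part of the wing disc that forms the back of the thorax, whereas the 2 h dissections still contained presumptive notum. Stage and tissue therefore cannot be told apart in this contrast. A stage field in the labels gave L3 for 3 and 24 h for 1 of the 18 h arrays, and 24 h for all 4 of the 2 h arrays. The titles and the descriptions name the same stages and were used. The other arrays of the series covered larvae late in the third instar (L3) and 6, 24 and 36 h APF, the last with 1 array of pooled RNA.

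At the onset of metamorphosis a pulse of the steroid hormone ecdysone sets off the eversion of the flat wing disc. The hormone acts through a nuclear receptor that switches on a first tier of transcription factors, and these in turn regulate the effector genes of tissue remodelling. The early pupal wing folds into a bilayer, its basal surfaces separate and later rejoin, with a changing extracellular matrix between them, and its cells pass through a last round of division before each grows a hair and cuticle. Wings at 2 h APF are at the beginning of eversion, and wings at 18 h APF lie after the prepupal period and before hair growth.

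Each array measured 15473 transcripts as a single-colour fluorescence intensity, and all levels below are log2 intensities. The arrays carried FlyBase transcript identifiers without gene names. A Release 6 gene table tied 17 transcripts to a single gene and 27 to several genes that are reading frames of the same messenger RNA, and the other 15429 had no name. Of the marker and pathway genes listed for this comparison LanA alone could be tied to a transcript, so none of 9 notum markers, 6 markers of wing blade and hinge, 17 ecdysone response genes, 17 cell cycle genes and 12 genes of planar polarity and hairs was analysed here. The labelled tissue was therefore not checked against its markers. Fewer cells of a type and less RNA per cell cannot be told apart in RNA of whole wings.

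Among the 8 arrays, 18 h array C stood apart from its stage. Its correlation with the other 18 h arrays was 0.971 to 0.977, while 18 h arrays A, B and D reached 0.993 among themselves and the 2 h arrays correlated at 0.985 to 0.991. In array C 1774 transcripts differed over 2-fold from the mean of the remaining 18 h arrays, 1246 above and 528 below, against 134 to 408 for arrays A, B and D and 161 to 378 for each 2 h array. Its correlation with the mean of the 36 h arrays was 0.915, compared with 0.889 to 0.892 for the other 18 h arrays. With the mean of the 24 h arrays it was 0.973, compared with 0.979 to 0.981. Array C also correlated less than arrays A, B and D with the means of L3, 2 h and 6 h APF. The array was kept, and counts of changed transcripts are given without it as well, as are the values of several named transcripts that it moved. The median SD of a transcript between arrays was 0.25 at 18 h APF (n = 4), 0.19 at 18 h APF without array C (n = 3) and 0.24 at 2 h APF (n = 4).

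A large part of the transcriptome differed between 18 h and 2 h APF. In limma, with p adjusted by Benjamini-Hochberg and a threshold of 0.05, 4122 of 15473 transcripts changed, which is 26.6%. Of these, 1917 (12.4%) were higher and 2205 (14.3%) were lower at 18 h than at 2 h APF. The median rise was 0.95 on the log2 scale, or 1.94-fold, and the median fall was -0.84, or 1.79-fold. Over all transcripts the median difference was 0.03. Without 18 h array C, 3679 transcripts changed, with 1826 higher and 1853 lower, and 1629 of the rises and 1799 of the falls were called in both fits.

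Numbers of large changes were similar in both directions. Changes past the test exceeded 2-fold for 909 rises and 863 falls, 4-fold for 277 and 314, 8-fold for 123 and 120, and 16-fold for 52 rises and 52 falls. Without 18 h array C these counts were 884 and 790 over 2-fold, 288 and 296 over 4-fold, 131 and 117 over 8-fold, and 51 and 51 over 16-fold. Most of the largest changes ended or began at a dim level. For 113 of the 123 rises over 8-fold the 2 h mean was below the median log2 value of 9.46, and for 107 of the 120 falls over 8-fold the 18 h mean did. RMA can compress differences of dim transcripts, and how far this bears on these folds was not tested.

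Arrays of the stages did not overlap for 4391 transcripts (28.4%), all 18 h arrays lying above all 2 h arrays for 2079 and below them for 2312. This held for 1619 of the 1917 rises and for 1962 of the 2205 falls. With 3 arrays in place of 4 at 18 h, array C left out, 2678 lay above and 2536 below. Of the 11351 transcripts not past the test, the 95% limits of the difference excluded a 2-fold change for 8899 (78.4%) and a 1.5-fold change for 4797 (42.3%). The plot of stage means shows rises and falls on either side of the diagonal over the whole range of levels.

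**Figure D1:**
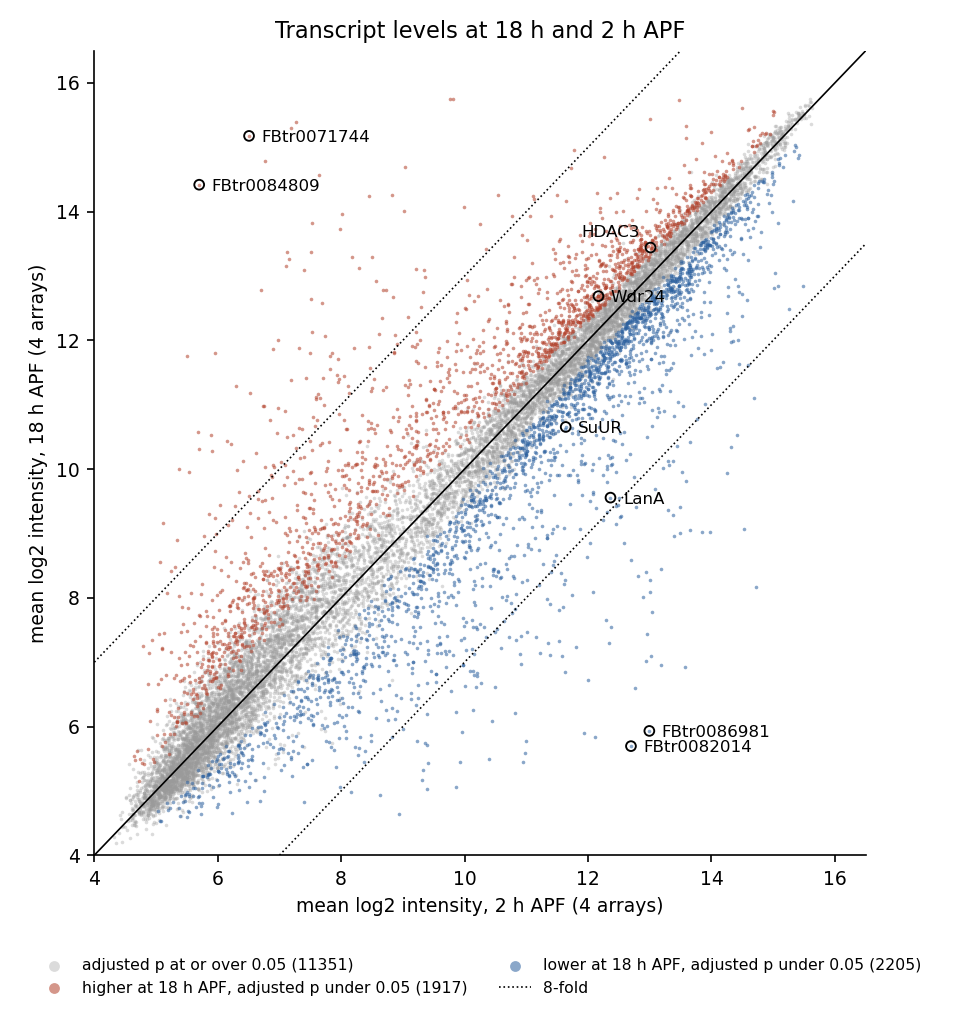
Mean log2 intensity of each of 15473 transcripts at 18 h APF (vertical axis, 4 arrays) against 2 h APF (horizontal axis, 4 arrays). Red points, 1917 transcripts higher at 18 h; blue points, 2205 lower at 18 h; grey points, 11351 not past the test; the solid line marks equal levels and the dotted lines an 8-fold difference. LanA lies just inside the lower 8-fold line. Of the 4 labelled transcripts without a name, FBtr0084809 and FBtr0071744 lie far above the upper 8-fold line and the others far below the lower.

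The slides offered a check within a slide, since 2 of the 6 slides carried an array of each stage. Slides were inferred from a number in the names of the deposited data. For an L3 array this number was incomplete, and the array was placed on the only slide that its digits and a free position allowed. Slide 2 held 18 h array B and 2 h array B. Transcripts called from the arrays of the other slides kept their direction on it for 88.8% of 1638 rises and 95.2% of 1935 falls, where 47.1% of all transcripts were higher and 52.9% lower. Slide 5 held 18 h array D and 2 h array C, and there the shares were 97.9% of 1453 rises and 96.1% of 1674 falls, against 50.5% and 49.5% of all transcripts. The correlation of arrays within a slide, estimated over all transcripts, was 0.06, and with slide as a random block 4213 transcripts changed.

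Of the 17 transcripts tied to a single gene, 12 did not pass the test, 3 fell and 2 rose at 18 h against 2 h APF. The 29.4% called is close to the 26.6% of all transcripts. LanA fell most, followed by SuUR and fend, and HDAC3 and Wdr24 rose. Per-array values below are in the order A, B, C, D for 18 h wings and B, C, D, E for 2 h wings.

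LanA, the alpha chain of laminin and thereby a building block of the basement membrane under the wing epithelium, was the named gene with the largest change. Its transcript FBtr0077014 had log2 intensities of 9.63, 9.64, 9.18 and 9.78 in 18 h wings, against 12.17, 12.60, 12.27 and 12.42 in 2 h wings. Every 18 h array was below every 2 h array, with a gap of 2.39 between the nearest arrays. The difference was -2.81 ± 0.26 (SE), a 7.0-fold decrease with 95% limits of -3.34 to -2.27 on the log2 scale (adjusted p = 4.0e-08). It was -2.53 on slide 2 and -2.82 on slide 5, and -2.68 without 18 h array C, which held the lowest value. Over the time course the mean of LanA was 13.00 at L3, 12.36 at 2 h, 11.08 at 6 h, 9.56 at 18 h, 10.48 at 24 h and 9.78 at 36 h APF. The 6 h level thus lay between the levels of 18 h and 2 h APF, and the 24 and 36 h levels lay closer to that of 18 h APF.

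The named genes of the cell membrane and its skeleton were fend and alpha-Spec. The transcript of fend, which encodes a transmembrane protein known from motor axon guidance, measured 8.72, 8.89, 7.95 and 8.40 in 18 h wings, against 9.42, 9.44, 9.37 and 9.42 in 2 h wings. The 2 h arrays were within 0.07 of each other while the 18 h arrays spread over 0.94, and the groups did not overlap. The change was -0.92 ± 0.24 (adjusted p = 0.0069), and -0.74 without 18 h array C (adjusted p = 0.033), the lowest of its group. For alpha-Spec, the spectrin chain that underlies the plasma membrane, the values were 12.81, 13.01, 12.78 and 13.12 in 18 h wings, against 12.47, 12.82, 12.61 and 12.57 in 2 h wings. The groups overlapped through 2 h array C, and the difference of 0.31 with limits of 0.02 to 0.60 did not pass the test (adjusted p = 0.115).

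Of the chromatin genes SuUR, HDAC3, kis and His4r, SuUR fell and HDAC3 rose. SuUR, a heterochromatin protein that slows replication forks in polytene chromosomes, had log2 intensities of 10.67, 10.79, 10.51 and 10.65 in 18 h wings, against 11.53, 11.94, 11.56 and 11.53 in 2 h wings. The 2 h arrays were all higher, and 2 h array C stood above the rest of its group. The difference was -0.98 ± 0.16 (adjusted p = 9.1e-05), a 1.98-fold decrease, with -0.74 on slide 2 and -1.30 on slide 5. At the other stages SuUR averaged 11.21 at L3, 11.00 at 6 h, 10.80 at 24 h and 11.06 at 36 h APF, so that the 2 h mean was the highest of the 6 stage means and the 18 h mean the lowest.

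HDAC3 encodes a histone deacetylase of a co-repressor complex. It measured 13.57, 13.44, 13.31 and 13.45 in 18 h wings, against 13.22, 12.93, 12.99 and 12.92 in 2 h wings. The lowest 18 h array, C, was still above the highest 2 h array, B, by 0.10. The rise of 0.43 ± 0.09 is 1.35-fold (adjusted p = 0.0012), with 0.23 on slide 2 and 0.52 on slide 5. HDAC3 averaged 13.59 at L3, 13.01 at 2 h, 12.78 at 6 h, 13.44 at 18 h, 13.16 at 24 h and 12.45 at 36 h APF, so its 18 h mean was the highest after L3. For kis, a chromatin remodelling ATPase, the groups overlapped at 13.75 ± 0.24 at 18 h and 13.54 ± 0.19 at 2 h APF (SD, n = 4 each), with a difference of 0.21 (adjusted p = 0.314). His4r, a histone H4 gene that is expressed outside of replication, differed by 0.19 with limits of -0.36 to 0.73 (adjusted p = 0.643), and by 0.00 without 18 h array C, its highest value.

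Wdr24 and mio encode subunits of GATOR2, a complex that relays amino acid supply to the growth kinase TORC1. Wdr24 measured 12.83, 12.81, 12.37 and 12.73 in 18 h wings, against 12.001, 12.42, 12.03 and 12.22 in 2 h wings. Its groups overlapped, since 18 h array C was slightly below 2 h array C, and the rise of 0.52 ± 0.14 (SE, 1.43-fold) passed the test (adjusted p = 0.0094). Without 18 h array C the rise was 0.62 (adjusted p = 0.0030). For mio the values were 10.28, 10.25, 9.29 and 10.00 in 18 h wings, against 10.05, 10.24, 9.87 and 10.14 in 2 h wings, with 18 h array C again the lowest. Its difference of -0.12 with limits of -0.55 to 0.31 did not pass the test (adjusted p = 0.717), and it was 0.10 without 18 h array C. Whether the changes of Wdr24 and mio differ from each other was not tested.

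A pair of transporters did not pass the test. NaPi-III, a sodium-dependent phosphate cotransporter, had log2 intensities of 10.29, 10.11, 9.22 and 10.63 in 18 h wings, against 10.67, 10.48, 10.62 and 10.82 in 2 h wings. Array C was the lowest of the 18 h wings and array D lay within the range of the 2 h wings. The difference of -0.58 ± 0.22 fell just short of the threshold (adjusted p = 0.055), and it was -0.56 on slide 2 and 0.14 on slide 5. Over the series its mean was 12.01 at L3, 10.65 at 2 h, 10.09 at 6 h, 10.06 at 18 h, 8.52 at 24 h and 7.65 at 36 h APF, lower at each later stage, with 6 and 18 h APF close together. Without 18 h array C the difference was -0.30 (adjusted p = 0.242), and without 18 h array D it passed the test (adjusted p = 0.0124). Fatp1, which takes up long-chain fatty acids, measured 11.60 ± 0.29 at 18 h and 11.78 ± 0.44 at 2 h APF (SD, n = 4 each) and differed by -0.17 with limits of -0.53 to 0.19, while its mean at 36 h APF was 13.78.

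None of the genes of protein turnover and signalling passed the test. Uba1, the enzyme that activates ubiquitin, measured 14.15, 14.00, 13.88 and 14.32 in 18 h wings, against 13.67, 13.91, 13.63 and 13.95 in 2 h wings. The groups overlapped, and the difference of 0.30 had limits of -0.04 to 0.64 (adjusted p = 0.200). For rdx, which brings the Hedgehog effector Ci to a Cullin-3 ubiquitin ligase, the difference was -0.15 (adjusted p = 0.410) at means of 14.91 ± 0.06 at 18 h and 15.06 ± 0.27 at 2 h APF. The 18 h arrays of rdx were within 0.15 of each other and the 2 h arrays spread over 0.56. Its mean at 6 h APF was 15.60, above both. For the kinase gene Dyrk3 the difference was 0.21 with limits of -0.05 to 0.47. The gene sle, needed for the organization of the nucleolus, differed by 0.19 (adjusted p = 0.439) while its means were 13.27 at L3, 12.59 at 2 h, 11.08 at 6 h, 12.78 at 18 h, 11.74 at 24 h and 9.96 at 36 h APF. Its 6 h level was thus lower than the levels of 18 h and 2 h APF, which lay close together. Of the genes without a known role, CG16974 differed by 0.03, and CG31178, near the dim end at 5.82 ± 0.45 at 18 h and 5.46 ± 0.29 at 2 h APF (SD, n = 4 each), by 0.35 with limits of -0.44 to 1.14.

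**Figure D2:**
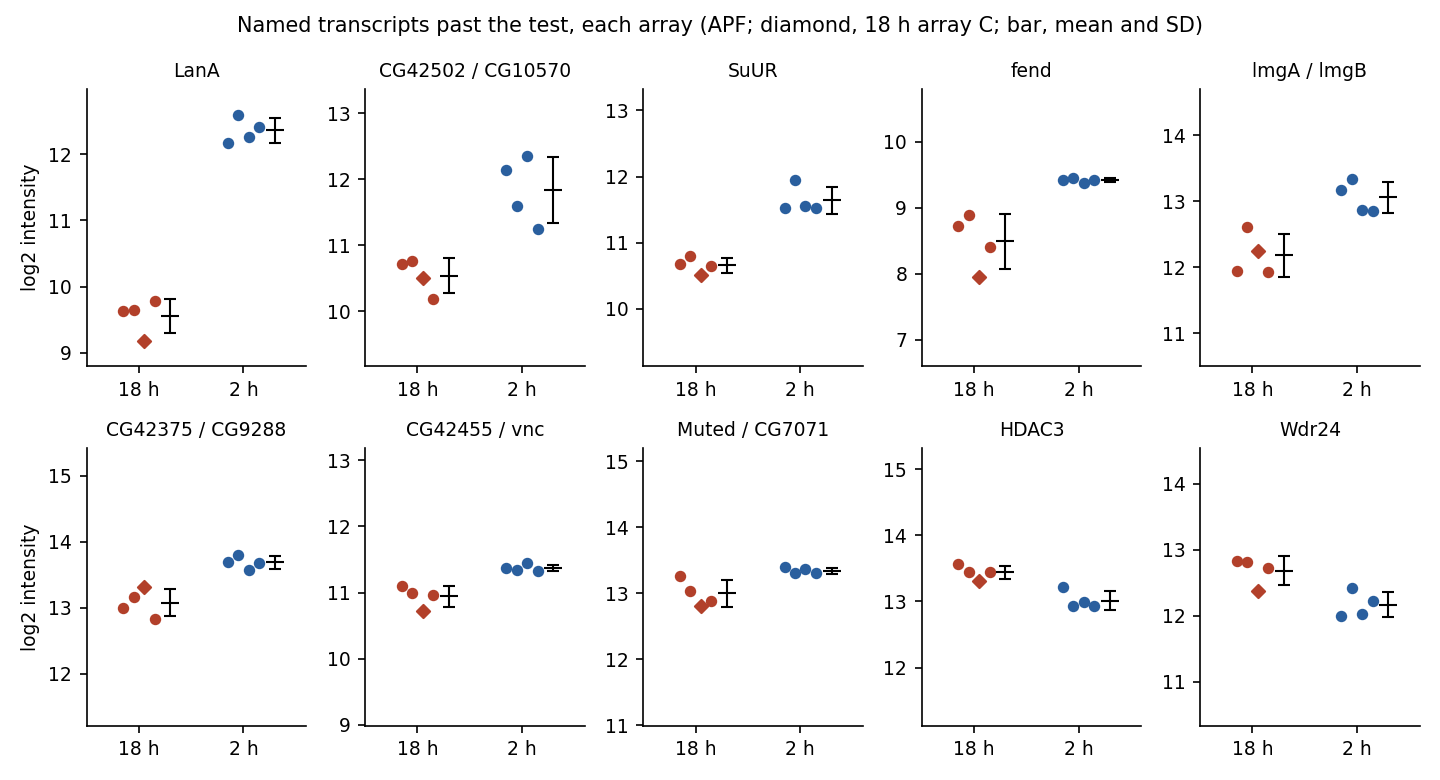
Log2 intensity in each array of the 10 named transcripts past the test, 18 h APF (red, left; arrays A to D in order, diamond for array C) and 2 h APF (blue, right; arrays B to E in order), with the mean and SD of 4 arrays as a bar; each panel spans the same range. LanA has the widest gap, Wdr24 is the panel whose groups overlap, and array C is the lowest 18 h array for LanA, SuUR, fend, vnc, Muted, HDAC3 and Wdr24.

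The 27 transcripts with several reading frames were added to the single genes after their values were seen. Of these, 22 did not pass the test, 5 fell and none rose. The 18.5% called compare with 26.6% of all transcripts, of which 12.4% were rises and 14.3% falls. A value belongs to the shared messenger RNA and not to any of its proteins. The 5 that fell were those of CG42502 and CG10570, of lmgA and lmgB, of CG42375 and CG9288, of CG42455 and vnc, and of Muted and CG7071.

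The transcript FBtr0079695 of lmgA and lmgB, the first of which encodes a subunit of the anaphase-promoting complex, measured 11.94, 12.61, 12.25 and 11.92 in 18 h wings, against 13.17, 13.34, 12.87 and 12.86 in 2 h wings. All 18 h arrays were lower, array B being the closest to the 2 h wings. The change was -0.88 ± 0.17 or 1.84-fold (adjusted p = 3.7e-04), with -0.56 on slide 2 and -1.42 on slide 5. Among the 6 stage means, from 12.18 at 18 h to 13.06 at 2 h APF, these stages were the lowest and the highest.

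For the transcript of CG42502 and CG10570 the values were 10.72, 10.76, 10.51 and 10.18 in 18 h wings, against 12.15, 11.59, 12.35 and 11.25 in 2 h wings. The 2 h arrays spread over 1.10 and did not overlap with the 18 h arrays. The difference of -1.29 ± 0.38 was the largest among named transcripts after LanA (adjusted p = 0.015), and it did not pass the test without 2 h array D (adjusted p = 0.0566). Its mean at 24 h APF was lower still, 8.76, while at 36 h APF it was 11.16. The transcript of CG42375 and CG9288 measured 13.00, 13.16, 13.31 and 12.83 in 18 h wings, against 13.69, 13.80, 13.57 and 13.67 in 2 h wings, a change of -0.61 ± 0.10 (adjusted p = 1.2e-04). It was -0.54 on slide 2 and -0.97 on slide 5.

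Both remaining falls were small and close to the threshold of the test. For CG42455 and vnc, of which vnc encodes the catalytic subunit of an N-terminal acetyltransferase, the values were 11.10, 10.99, 10.73 and 10.97 in 18 h wings, against 11.37, 11.35, 11.44 and 11.33 in 2 h wings. The groups did not overlap and the difference was -0.43 ± 0.15 (adjusted p = 0.037). It did not pass the test when 2 h array B, C, D or E or 18 h array B, C or D was left out, at differences of -0.44 to -0.35 and with an adjusted p of 0.119 without 18 h array C. With all arrays kept it did not pass with slide as a fixed block (-0.45, adjusted p = 0.0552) or after cyclic loess (-0.37, adjusted p = 0.0659). For Muted and CG7071, of which Muted belongs to the BLOC-1 complex of lysosome-related organelles, the values were 13.26, 13.04, 12.81 and 12.88 in 18 h wings, against 13.39, 13.31, 13.36 and 13.30 in 2 h wings. The 18 h arrays were again lower throughout, with a difference of -0.35 ± 0.11 (adjusted p = 0.022). The adjusted p was 0.0507 without 2 h array B, 0.0831 without 18 h array C and 0.0686 without 18 h array D, at differences of -0.33, -0.28 and -0.31. It was 0.093 in a fit of the 8 arrays alone and 0.0561 with array medians centred again, at differences of -0.35 and -0.34.

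The 34 named transcripts not past the test differed by -0.58 to 0.35, and for 30 of them the 95% limits excluded a 2-fold change. The transcript of moi, a telomere capping protein, and Tgs1, which trimethylates the cap of small RNAs, was the closest to a rise, with 12.26, 12.16, 11.96 and 12.30 in 18 h wings, against 11.90, 11.87, 11.98 and 11.84 in 2 h wings. It differed by 0.27 (adjusted p = 0.084) and passed the test without 18 h array C (adjusted p = 0.0397), after cyclic loess (0.0284), with dim transcripts left out (0.0476), with array weights (0.0339) and without moderation of the variance (0.049). A pair of transcripts not past the test had groups that did not overlap. Over the 44 named transcripts the groups did not overlap for 11, and over all 15473 transcripts for 28.4%. The transcript of CG42512 and CG32573 measured 5.72, 6.18, 5.87 and 5.96 in 18 h wings, against 6.48, 6.58, 6.21 and 6.78 in 2 h wings, near the dim end. Its difference of -0.58 with limits of -1.06 to -0.09 did not pass (adjusted p = 0.072), but it did in a fit of the 8 arrays alone (0.0286), in that fit without 18 h array C (0.047) and with array weights (0.033). The transcript of Mocs2A and Mocs2B, both subunits of molybdopterin synthase, was lower on all 18 h arrays, 12.30, 12.41, 12.59 and 12.46 in 18 h wings, against 12.78, 12.61, 12.72 and 12.71 in 2 h wings. Its difference of -0.26 did not pass (adjusted p = 0.132). Several transcripts of general cell functions were nearly level. These were the transcripts that hold Tim10, a chaperone of mitochondrial protein import (-0.09, limits -0.36 to 0.17), Mettl5, a methyltransferase of ribosomal RNA (-0.02, limits -0.31 to 0.28), and Ppcdc, of coenzyme A synthesis (0.01, limits -0.31 to 0.33). The transcripts of Rad1, a subunit of the DNA damage clamp, and of Polr3K, a subunit of RNA polymerase III, had wider limits, with differences of -0.41 (-0.85 to 0.02) and -0.45 (-0.90 to 0.00). Without 18 h array C, the lowest of its group for Rad1, the difference of the Rad1 transcript was -0.15 (adjusted p = 0.60).

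**Figure D3:**
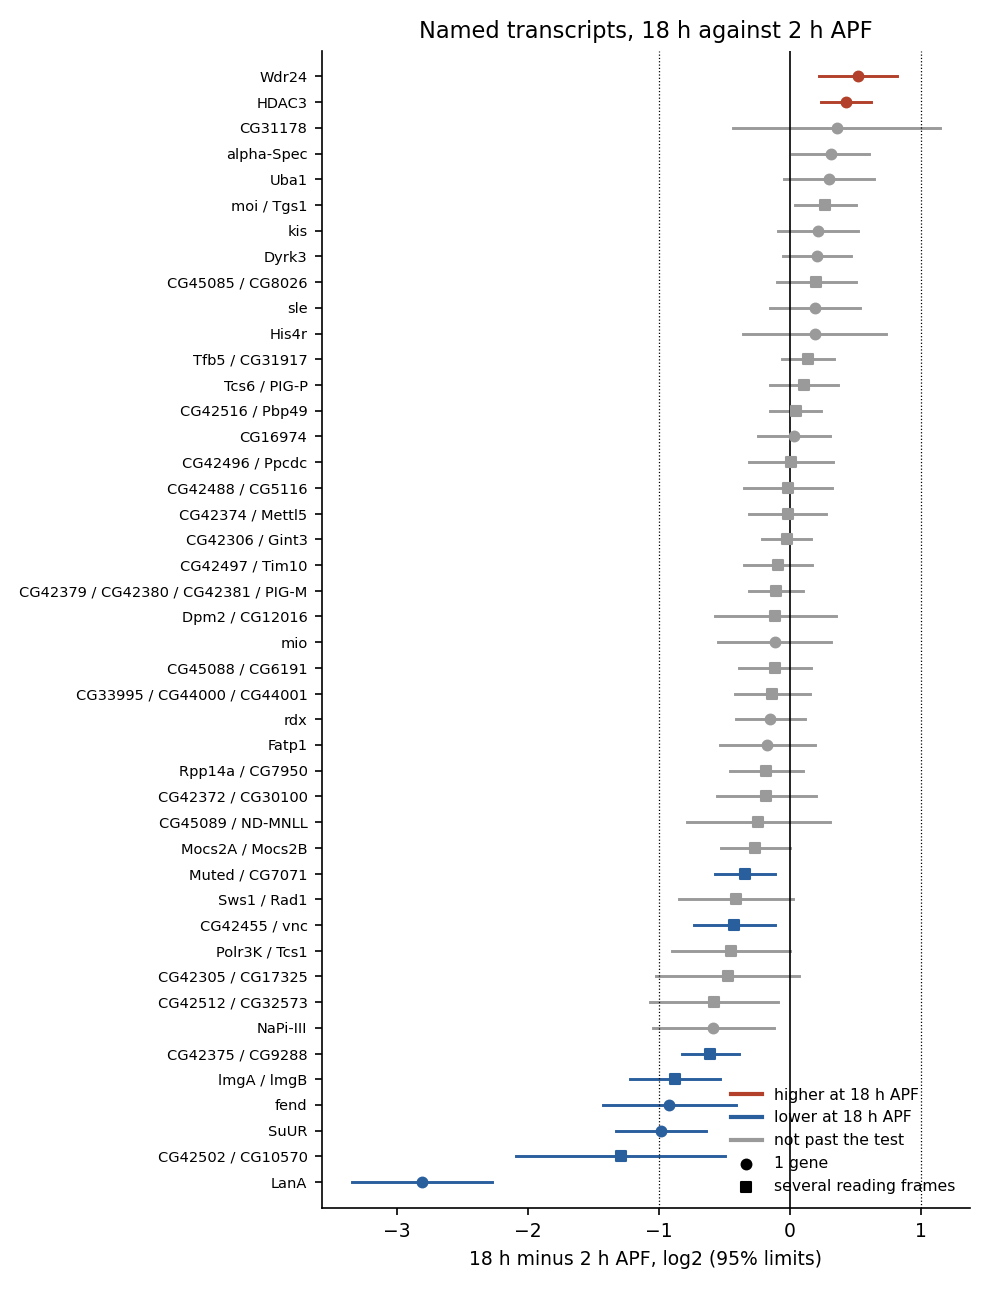
Difference of 18 h minus 2 h APF on the log2 scale (horizontal axis) with 95% limits for all 44 named transcripts, sorted by the difference; circles, 17 tied to a single gene; squares, 27 with several reading frames; red, 2 higher and blue, 8 lower at 18 h; grey, 34 not past the test. Dotted lines mark a 2-fold difference, and LanA is the transcript whose limits lie wholly beyond it.

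The changes of largest fold were in transcripts without a name. FBtr0084809 had log2 intensities of 14.39, 14.49, 14.01 and 14.78 in 18 h wings, against 5.36, 5.75, 6.16 and 5.53 in 2 h wings, a difference of 8.72 ± 0.25 (adjusted p = 2.7e-15). Its means were 5.95 at L3, 5.70 at 2 h, 5.87 at 6 h, 14.42 at 18 h, 11.87 at 24 h and 7.39 at 36 h APF, so the high level was found at 18 and 24 h APF and was much lower by 36 h. FBtr0071744 measured 15.22, 15.14, 15.29 and 15.06 in 18 h wings, against 6.73, 6.58, 6.02 and 6.70 in 2 h wings, a difference of 8.67 ± 0.33 (adjusted p = 7.3e-14). Its mean was 6.24 at L3 and 8.08 at 6 h APF, with an SD of 1.08 at 6 h. Unlike the first transcript it stayed high, with 15.62 at 24 h and 15.17 at 36 h APF.

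Among the falls, FBtr0086981 measured 5.63, 5.92, 5.68 and 6.49 in 18 h wings, against 12.87, 13.10, 13.28 and 12.74 in 2 h wings, a difference of -7.06 ± 0.25 (adjusted p = 2.6e-14). Its means were 12.29 at L3, 12.99 at 2 h, 8.61 at 6 h, 5.93 at 18 h, 5.99 at 24 h and 6.59 at 36 h APF, a level that was high in L3 and 2 h wings, intermediate at 6 h and near the dim end from 18 h onward. FBtr0082014 had 5.90, 5.32, 5.55 and 6.01 in 18 h wings, against 12.27, 13.26, 12.93 and 12.33 in 2 h wings, a difference of -7.00 ± 0.42 (adjusted p = 8.4e-11). It was dim at L3 (5.76), intermediate and variable at 6 h APF (9.84, SD 1.27), dim at 24 h APF (5.65) and bright again at 36 h APF (12.46).

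To describe what lasted once the 6 h state had passed, transcripts were chosen by 6 h APF against L3. The means of that contrast use none of the 8 arrays, although its estimate of spread comes from the fit of all stages. There, 2911 transcripts rose (18.8%) and 3710 fell (24%), and 400 were over 8-fold higher and 126 over 8-fold lower at 6 h. The 400 and the 126 were chosen by their 6 h and L3 means, so their 6 h medians are extreme by that choice. No test of the sets was made, and 6 h wings contained notum while 18 h wings did not. For the 400 transcripts the median level at 18 h was closer to that at 2 h than to that at 6 h APF. The median level of the 400 transcripts was 7.81 at L3, 9.09 at 2 h, 13.02 at 6 h, 8.66 at 18 h, 8.53 at 24 h and 10.45 at 36 h APF. The median of 18 h minus 2 h was -0.39, against 0.03 for all transcripts, and each 18 h array gave a negative median, from -0.27 for array B to -0.51 for array C. Without 18 h array C it was -0.35, with 91 rises and 149 falls among 400 transcripts. With dim transcripts left out it was -0.75. Dim meant a mean over the same 8 arrays below the median log2 value of 9.46. That filter used the arrays whose difference is given, and the reason for the shift was not tested.

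The 400 transcripts nevertheless did not all return to their 2 h levels. At 18 h against 2 h APF, 95 of them rose (23.8%), 161 fell (40.3%) and 144 (36.0%) stayed short of the threshold, where 12.4% of all transcripts rose and 14.3% fell. The quartiles of their differences were -1.66 and 0.69, compared with -0.28 and 0.35 for all transcripts, and 177 (44.3%) lay within 2-fold of the 2 h level, compared with 87.2% of all transcripts. Changes over 8-fold were made by 20 rises and 40 falls. Among those past the test the median rise was 1.72 and the median fall -2.10.

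For the 126 transcripts lower at 6 h, the median level at 18 h was again closer to that at 2 h than to that at 6 h APF. Their median level was 11.49 at L3, 10.57 at 2 h, 7.70 at 6 h, 10.06 at 18 h, 9.35 at 24 h and 8.64 at 36 h APF. At 18 h against 2 h APF, 25 rose (19.8%) and 49 fell (38.9%), with 52 short of the threshold, a median of -0.27 and medians of single 18 h arrays from -0.15 for array B to -0.67 for array C. Without 18 h array C the median was -0.21, with 23 rises and 43 falls among 126. Within 2-fold of the 2 h level lay 56 (44.4%). In both sets falls outnumbered rises, as they did over all transcripts. For longer lists the medians were nearer to 0, at -0.13 over 4-fold and -0.05 over 2-fold lower at 6 h, and -0.20 and -0.12 over 4-fold and over 2-fold higher.

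**Figure D4:**
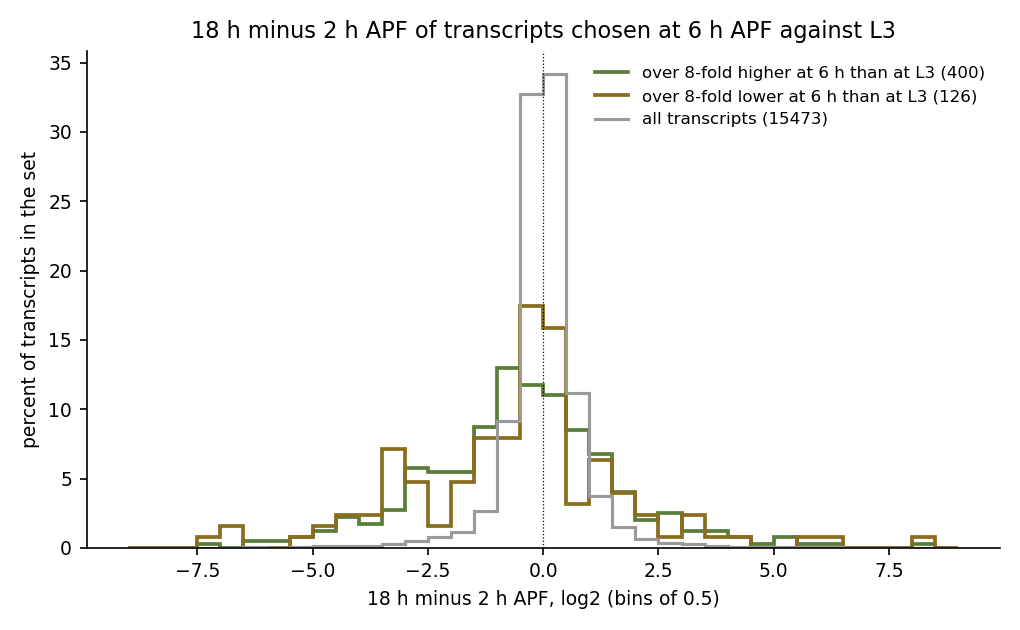
Distribution of 18 h minus 2 h APF on the log2 scale (horizontal axis, bins of 0.5) as the percent of transcripts in each set (vertical axis): 400 transcripts over 8-fold higher at 6 h APF than at L3 (green), 126 over 8-fold lower (brown) and all 15473 (grey). Both chosen sets are broader than all transcripts, with medians of -0.39 and -0.27 against 0.03.

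The level at 6 h APF of the transcripts that changed between 18 h and 2 h APF was not always intermediate. Of the 1917 rises, the 6 h mean lay between the means of 18 h and 2 h for 821 (42.8%), below both for 749 (39.1%) and above both for 347 (18.1%). Of the 2205 falls it lay between them for 934 (42.4%), above both for 808 (36.6%) and below both for 463 (21.0%). Among the 120 falls over 8-fold, 45 were higher at 6 h than at either stage. The 6 h mean lay between for 762 of 1826 rises (41.7%) and for 771 of 1853 falls (41.6%) without 18 h array C. These positions refer to the means that chose the transcripts, so no test was made.

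The 24 h level was close to the 18 h level for most of the large changes. Median levels of the 123 rises over 8-fold were 7.91 at L3, 7.52 at 2 h, 8.30 at 6 h, 11.58 at 18 h, 11.25 at 24 h and 10.88 at 36 h APF. For the 120 falls over 8-fold they were 9.70 at L3, 11.62 at 2 h, 11.18 at 6 h, 7.40 at 18 h, 7.56 at 24 h and 9.28 at 36 h APF. The 24 h mean was nearer to the 18 h than to the 2 h mean for 88.6% of these rises and 97.5% of these falls. Among all 1917 rises and 2205 falls the shares were 77.2% and 77.1%. Here too the positions refer to means that chose the transcripts, and no test was made. At 36 h APF 35 of the 120 falls were above their 2 h level. At L3 the falls were divided, since 46.7% had an L3 mean nearer to the 18 h than to the 2 h mean, as FBtr0082014 did. Among the rises over 8-fold 17.1% did. The 24 h mean was nearer to the 18 h mean for 85.5% of 131 rises and 95.7% of 117 falls over 8-fold without 18 h array C.

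**Figure D5:**
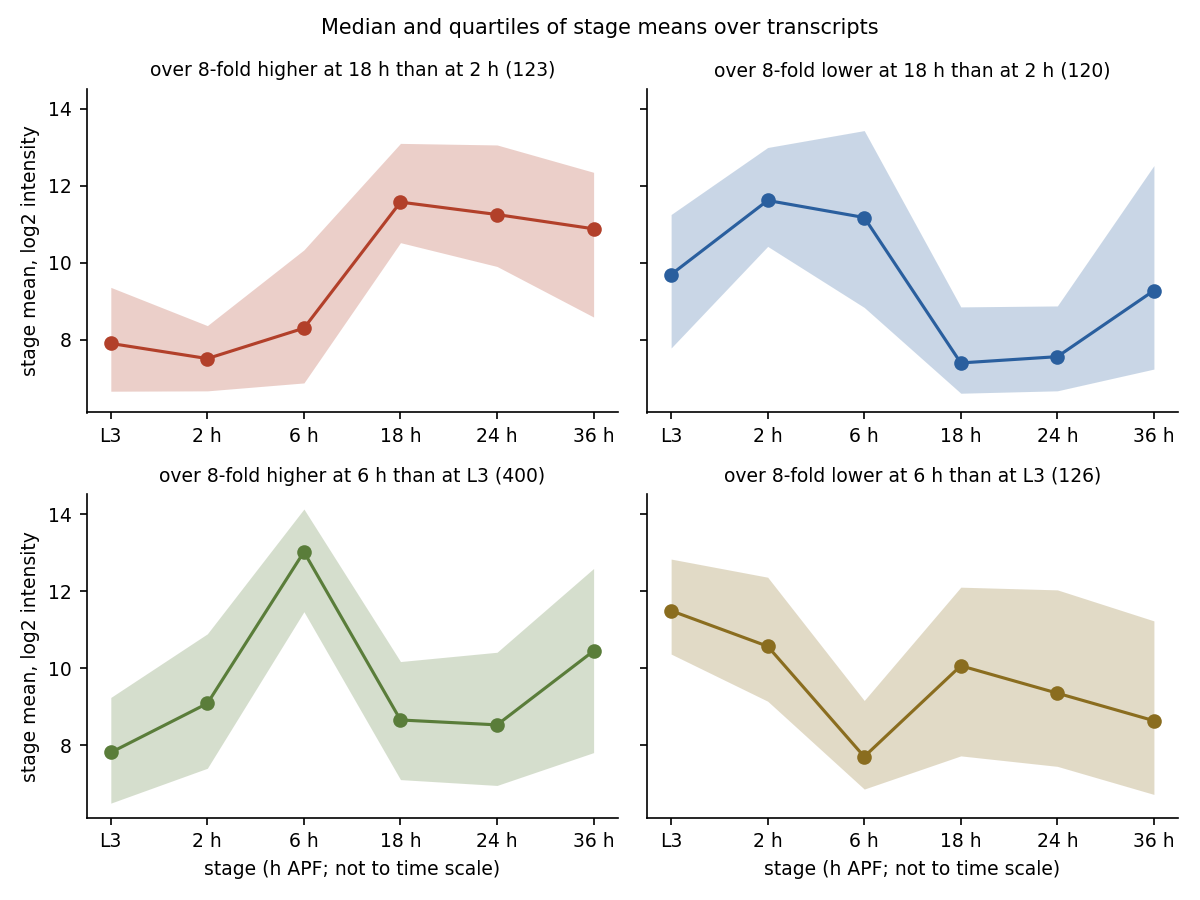
Median (points and line) and quartiles (band) over transcripts of the stage mean log2 intensity (vertical axis) at the 6 stages in time order (horizontal axis, not to time scale), for the 123 rises and the 120 falls over 8-fold at 18 h against 2 h APF and for the 400 and 126 transcripts over 8-fold higher and lower at 6 h APF than at L3. The first set stays near 11 from 18 h on, and the second falls to 7.40 at 18 h and is at 9.28 by 36 h. The third, chosen for its high 6 h level, is at 13.02 at 6 h.

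The means of 24 h APF against L3 share no array with those of 18 h against 2 h APF, although both contrasts share the fit's estimate of spread. The contrast likewise sets wings without notum against wings with notum. It called 17.9% of all transcripts as rises and 17.3% as falls. Of the 1917 rises at 18 h, 1008 (52.6%) also rose at 24 h APF against L3 and 214 fell, and the 1008 make up 36.3% of the 2777 rises of that contrast. Of the 2205 falls, 900 (40.8%) also fell and 285 rose, and the 900 make up 33.6% of its 2682 falls. Among the changes over 8-fold, 99 of the 123 rises also rose and 76 of the 120 falls also fell. Without 18 h array C the shared calls were 980 rises and 765 falls. LanA was lower at 24 h APF than at L3 by the same contrast (-2.52, adjusted p = 1.0e-07), as was fend (-1.21, adjusted p = 0.00043), whereas HDAC3 (-0.43, adjusted p = 0.00072) and Wdr24 (-0.56, adjusted p = 0.0036) were lower there and higher at 18 h than at 2 h APF.

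At 36 h APF against L3, which called 30% of all transcripts as rises and 30.8% as falls, 927 of the 1917 rises rose and 528 fell, and 953 of the 2205 falls fell and 664 rose. The 927 are 20% of its 4636 rises, and the 953 are 20% of its 4764 falls. Of the 120 falls over 8-fold, 61 fell and 48 rose at 36 h APF against L3. When 18 h array C was left out, 807 of 1826 rises rose and 583 fell, and 739 of 1853 falls fell and 631 rose. Muted and CG7071 were higher at 36 h APF than at L3 by 0.80 (adjusted p = 6.1e-06), although lower at 18 h than at 2 h APF.

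The other stages also give a view of the dissected tissue. For 420 of the rises (21.9%) all 7 arrays of 24 and 36 h APF, without notum, lay above all 8 arrays of L3 and 6 h APF, with notum, and for 283 of the falls (12.8%) all 7 lay below. Over all transcripts the shares were 5.0% above and 3.77% below. Among the changes over 8-fold this held for 59 of the 123 rises and 29 of the 120 falls. With 18 h array C left out it held for 401 of 1826 rises and 259 of 1853 falls. The presence of notum follows the stage in these samples too, so its part in the changes cannot be told apart from that of time.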

How the data were processed

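Total RNA of dissected wings was amplified, labelled with Cy3 and hybridized to NimbleGen expression arrays, 4 arrays to a slide on 6 slides. The authors scanned the arrays, quantile normalized all of them together in NimbleScan and summarized probes to transcripts with RMA. The deposited files of single samples hold the resulting linear intensity of 15473 transcripts, with no background or detection call. A deposited table of the whole series holds log2 values of the same arrays for 15469 transcripts. Its 4 L3 columns stood in exchanged places, as a comparison with the sample files showed. It served as an alternative with its columns as named. Which annotation release and genome build the array was designed on, and which version of RMA ran, is not given here by any source. Since array distributions were made equal, a shift in total RNA is hidden.

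The log2 of the deposited values was modelled by lmFit and eBayes (limma 3.58.1, R 4.3.3), with 1 mean for each of 6 stages over 23 arrays. The pooled 36 h array was left out. Contrasts were tested two-sided, with p adjusted over the 15473 transcripts by Benjamini-Hochberg and called under 0.05, and 95% limits come from the moderated fit. The labels call the samples independent replicates, so p-values measure the spread between separately collected samples. The number of arrays limits the precision. The paper's methods name an ANOVA over arrays normalized together, which was run as an alternative. A fit of simulated data for 18 h against 2 h APF held 15473 transcripts. In it the test recovered 15 of 67 transcripts changed 1.5-fold, 41 of 67 changed 2-fold and 61 of 66 changed 4-fold, with 5 false calls. These changed transcripts were few, while 26.6% of transcripts were called in the wings. Recovery at that larger share was not tested. Tables and figures were made with Python 3.11.15, pandas 2.3.3 and matplotlib 3.10.9.

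Transcripts were named by matching identifiers to synonyms in a Release 6 gene table. All 17 tied to a single gene were described whatever their values, as the rule for named genes set, and of transcripts without a name the 2 rises and 2 falls of largest fold. The members, lists and tests were chosen with earlier results of these data known. The lists of notum, wing, myoblast, trachea, hemocyte, fat body, ecdysone, cell cycle, matrix, polarity and core promoter genes were not analysed here apart from LanA, and no sequence is given. The alternatives were the 8 arrays alone, the pooled array kept, slide, position and replicate letter as blocks, other normalizations, the series table, dim transcripts left out, other moderation, array weights, other thresholds and each array left out. Dim transcripts were those whose mean over the 8 arrays of 18 h and 2 h APF was below the median log2 value of 9.46. Leaving out 18 h array C without the other stages, and together with 24 h array B, was added after the data were seen.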

Additional observations from a re-analysis of the deposited data

Results flagged for a closer look

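In 4 of the 96 groups of 4 arrays looked at, each a described transcript at 18 h or at 2 h APF, the highest or lowest array stood away from the others by more than Dixon's critical value, a number that chance alone gives in about 1 of 20 groups. Of the named transcripts past the test this concerned SuUR, at 11.94 in 2 h array C against 11.53 to 11.56 in the other 2 h arrays. The other 3 were in 18 h array B and in transcripts not past the test. The transcript of Dpm2, a subunit of dolichol phosphate mannose synthase, and CG12016 was at 11.32 in it, against 11.00 to 11.04 in the other 18 h arrays. The transcript of Tfb5, a subunit of the transcription factor TFIIH, and CG31917 was at 13.41, against 13.67 to 13.72. The transcript of CG42516 and Pbp49, a subunit of the complex that activates small nuclear RNA genes, was at 14.11, against 13.76 to 13.79. None of the 4 was in 18 h array C, the array that stood apart over all transcripts.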

How the results depend on the processing

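The 4122 changes between 18 h and 2 h APF (1917 rises and 2205 falls) were 3573 to 3906 with 1 array left out, 1581 to 1856 rises and 1853 to 2151 falls, and 3603 to 4673 with slide, position, normalization, moderation, array weights, the 8 arrays alone, the pooled array or the series table changed. With dim transcripts left out, 3006 of 7704 changed. No transcript was called in the opposite direction in any of these fits. Rises were 46.5% of the calls, 50.1% with array weights and likewise 50.1% without 18 h array C and 24 h array B (1915 rises and 1906 falls), and 52.0% in the fit of the 7 arrays other than 18 h array C, where rises outnumbered falls (1946 and 1798). Stricter thresholds gave 1772 changes over 2-fold (909 and 863), 1190 by treat against 1.5-fold (592 and 598) and 1003 by Bonferroni (472 and 531), as their construction implies. Deviations of same-lettered samples of 18 h and 2 h APF correlated at -0.17, -0.29 and -0.05 for letters B, C and D. Pairs of unlike letters ranged from -0.23 (18 h D and 2 h B) to 0.26 (18 h B and 2 h C). With so few pairs these values cannot decide whether the letters mark a pairing. With the replicate block, 3733 transcripts changed in 23 arrays and 1284 in the 8 arrays alone (604 rises and 680 falls). In the 8 arrays only letters B, C and D occur at both stages. There 18 h array A and 2 h array E add nothing to the difference, and few degrees of freedom remain. The median difference of the transcripts higher at 6 h than at L3 was -0.39, -0.48 to -0.26 with 1 array left out, -0.75 with dim transcripts left out, and -0.20 and -0.12 for lists over 4-fold and over 2-fold, and that of transcripts lower at 6 h was -0.27, then -0.13 and -0.05. Of the rises and falls also called at 24 h APF against L3 (1008 and 900), 663 rises were left without dim transcripts and 354 rises and 217 falls under treat. These lists were not recomputed under the replicate block, since the L3 samples carry no letter. Under treat LanA alone of the 10 named transcripts stayed past the test. In the 24 other alternatives (23 for fend) LanA passed throughout, and fend, SuUR, HDAC3, Wdr24 and the transcripts of lmgA and of CG9288 in all but the replicate block of the 8 arrays. Differences near 0 that never passed the test turned sign, and the cause was not tested. CG42496 / Ppcdc was -0.041 and -0.0017 with slide as a fixed and a random block, -0.057 and -0.075 with the replicate block in 23 and 8 arrays, and -0.024 with array weights. CG42374 / Mettl5 was 0.037 and CG42488 / CG5116 0.025 with cyclic loess, the second also 0.020 with array weights and 0.037 without 18 h array C in either added fit, and mio was 0.050 and 0.10 there. With 1 array left out the ranges were -0.11 to 0.10 for Ppcdc, -0.066 to 0.058 for Mettl5, -0.23 to 0.10 for mio, -0.076 to 0.11 for CG16974, -0.075 to 0.050 for CG5116, -0.018 to 0.24 for Tcs6 / PIG-P, -0.085 to 0.029 for CG42306 / Gint3 and -0.042 to 0.077 for Pbp49. Of the 34 named differences not past the test, 13 had the opposite sign on slide 2 and 7 on slide 5. The files give no signal over background, so how far dim transcripts limit these results was not tested.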
